A study of Mus musculus with 10 samples.

Results

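The creatine kinase and adenylate kinase shuttle moves high-energy phosphate from mitochondria to the sites where heart muscle uses ATP. Its transcripts were followed through 9 genes, namely Ckm, Ckmt2, Ckb, Slc6a8, Gamt, Gatm, Ak1, Ak3 and Ak4, taken by symbol from a table of 24160 gene rows. Each of the 9 genes had exactly 1 row and all 9 were among the 14611 genes tested. The 6 MC4R-/- and 4 WT libraries hold polyadenylated RNA from the posterior wall of the left ventricle. All came from C57BL6/J mice aged 30 weeks that were kept at 24 °C and bred from heterozygous pairs. MC4R-/- mice lack the melanocortin 4 receptor, which is known for its part in appetite control in the hypothalamus, and WT mice carry it. The labels name no Cre or tissue-specific driver and no treatment, and they give neither the making of the allele nor the animal behind each library. The p-values therefore cover the spread between libraries, which may be technical in part. The series title ties loss of the receptor to dilated cardiomyopathy, and the comparison asks which ventricular transcripts differ between the genotypes.

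As background, creatine kinases pass the phosphate of ATP to creatine and back. The mitochondrial enzyme does so where ATP leaves the organelle, and the cytosolic enzyme does so beside myosin and the calcium pump, so that phosphocreatine acts as a carrier and a buffer. Adenylate kinases interconvert ADP with ATP and AMP, which recovers energy from ADP and sets the AMP signal that AMP-activated protein kinase reads. Heart muscle takes up most of its creatine from the blood, while kidney, pancreas and liver are the main organs that make it. A larger share of the brain-type creatine kinase and less total creatine kinase are known features of failing hearts.

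Each library held 4145033 to 6425785 reads assigned to genes, and every value below is a normalized count, a read count divided by 1 size factor per library. Mc4r itself had 4 reads over the MC4R-/- libraries and 2 over the WT libraries, so it checks no label at this depth. The cardiomyocyte markers were high throughout, with summed levels of 414738 to 461890 in MC4R-/- and 422275 to 468702 in WT. Summed ventricular markers ran from 79791 to 97050.1 in MC4R-/- and from 94024 to 102019 in WT. Atrial markers were highest in MC4R-/- replicate 5, which had 3155 against 504 to 1338 in WT. Fibroblast markers summed to 5426 to 6165 in MC4R-/- and 4669 to 5574 in WT, with 6 of 6 fold changes positive and 1 past the test, Lum (limma, adjusted p = 0.0112). Macrophage markers summed to 1020.07 to 1298 in MC4R-/- and 781 to 1022 in WT, with 4 of 5 fold changes positive and 0 past the test. Fold changes were positive for 2 of 5 endothelial markers and 1 of 6 smooth muscle and pericyte markers, with 0 past the test. Among all 14611 genes tested, 7072 fold changes were positive and 0.459% of genes passed. The part of these cell types in the values below was not tested. Lymphocyte markers summed to 367 in WT replicate 2 and to at most 26.0 in any other library. Y-linked transcripts were present in all 10 libraries, and Xist reached 134 in WT replicate 2 and at most 7.92 elsewhere.

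By limma, 0 of the 9 shuttle genes had an adjusted p under 0.05, where 0.459% of the 14611 genes tested did (p-values adjusted over all of them). At an unadjusted p below 0.05 there were 2 of 9, Ak4 and Ckm, against 9.6% of all genes. At an adjusted p under 0.05, DESeq2 called 1 of 9 (Ak4; 0.808% of all genes) and edgeR 0 of 9 (0.342% of all genes). No gene of the 9 had MC4R-/- and WT libraries that did not overlap at all, a pattern found in 2.28% of all genes. In 5 of the 9 the log2 fold change was positive and in 4 negative, with a median size of 0.13 on the log2 scale, beside 0.12 over all genes tested. Ak4, a mitochondrial matrix adenylate kinase, stood nearest to the threshold, with a log2 fold change of 0.47 (95% confidence interval 0.24 to 0.70) and an adjusted p of 0.0733.

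**Figure D1:**
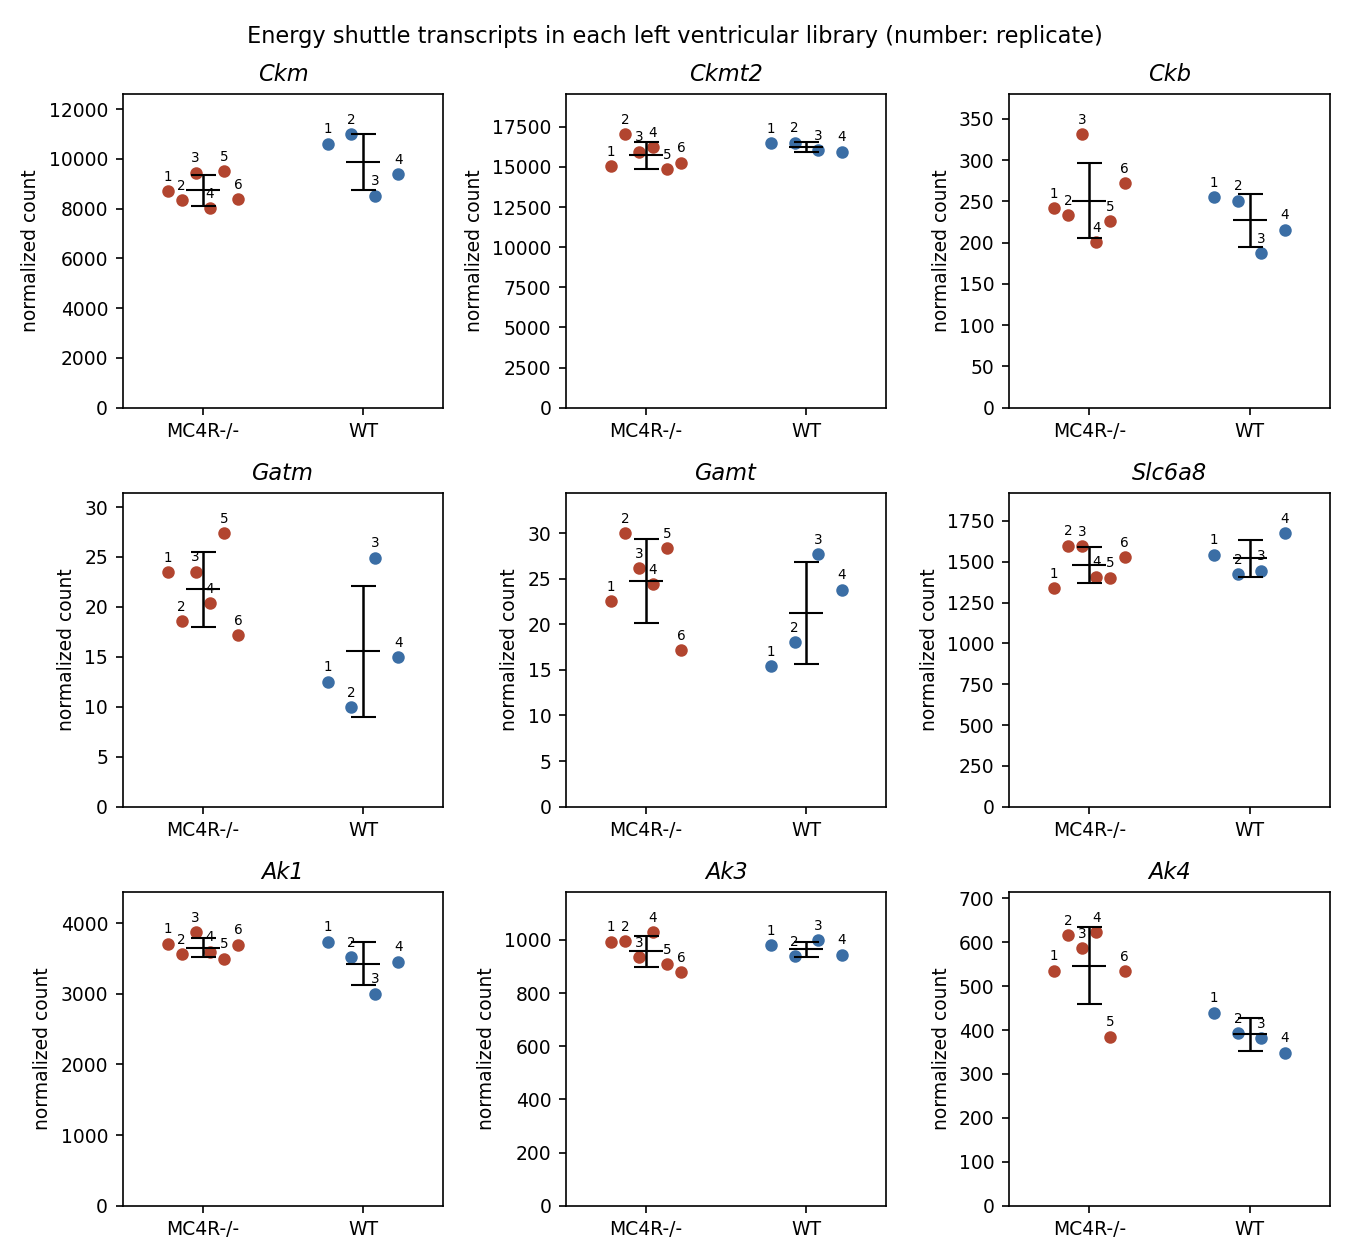
Normalized count (vertical axis, from 0) of each of the 9 shuttle genes in every library, with MC4R-/- on the left and WT on the right of each panel. Points are libraries marked with their replicate number, and black bars are the mean ± SD (n = 6 and n = 4); in the Ak4 panel 5 of 6 MC4R-/- libraries lie above all WT libraries.

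Per length of transcript, the mean level of the highest of the 9 genes was 1147 times that of the lowest in MC4R-/- and 1654 times in WT. Ckmt2, the sarcomeric mitochondrial creatine kinase, led with 10585 ± 558 normalized counts per kb in MC4R-/- (SD, n = 6) and 10932 ± 192 in WT (SD, n = 4), which ranked it 22nd of all rows with a known length. Ckm, the muscle-type cytosolic creatine kinase, followed with 6174 ± 437 in MC4R-/- and 6979.9 ± 798 in WT. Ak1, the main cytosolic adenylate kinase of muscle, had 1762 ± 63.6 per kb in MC4R-/- and 1652 ± 149 in WT. Below them came the creatine transporter Slc6a8, the matrix adenylate kinase Ak3, brain-type Ckb and Ak4. Per length, Ckb averaged 170 ± 31.0 in MC4R-/- and 154 ± 21.8 in WT, and Ak4 averaged 131 ± 21.0 in MC4R-/- and 93.4 ± 8.98 in WT. The synthesis enzymes closed the order, Gamt with 25.1 ± 4.63 per kb in MC4R-/- and 21.5 ± 5.62 in WT, and Gatm with 9.22 ± 1.59 in MC4R-/- and 6.61 ± 2.78 in WT. The order of the means was the same in both genotypes. Neighbours in it had ranges that did not overlap in either genotype, except Ckb and Ak4, whose ranges overlapped in MC4R-/- (Ckb 136 to 225 and Ak4 92.0 to 149 per kb).

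**Figure D2:**
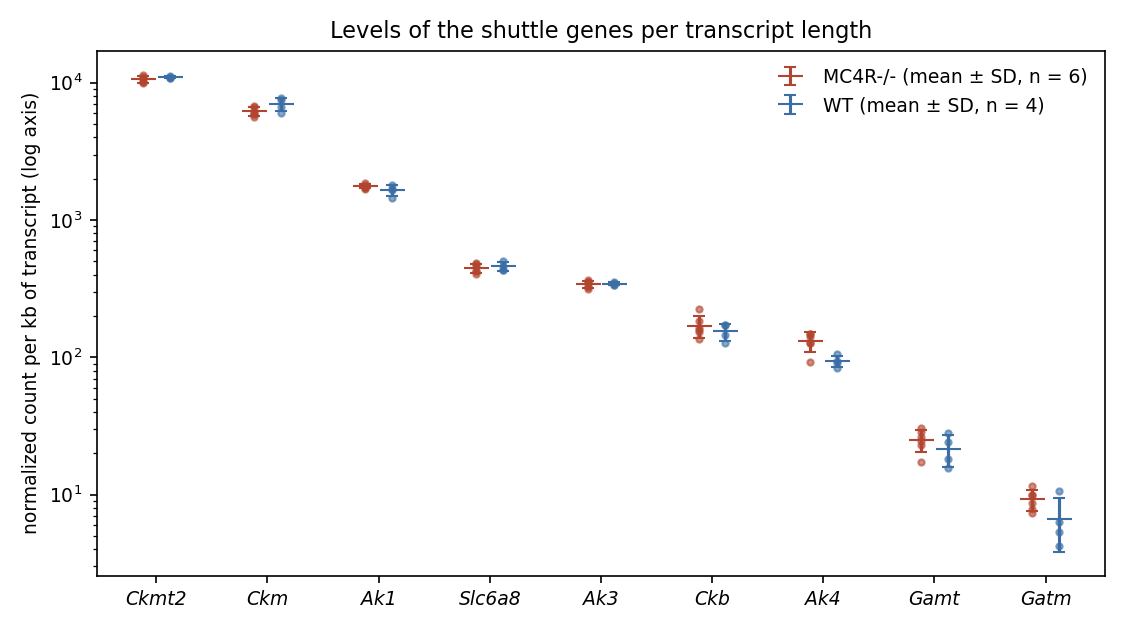
Normalized count per kb of transcript (log axis) of the 9 genes in falling order of level, MC4R-/- left of WT. Points are libraries and bars are the mean ± SD; Ckmt2 and Ckm lie far above the synthesis enzymes Gamt and Gatm at the right end.

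Among the creatine kinases, Ckm had the largest log2 difference of the 3 genes, and it did not pass the test. Ckm (chromosome 7, 19411094 to 19421583, GRCm38) had 8698, 8346, 9455, 8018, 9513 and 8382 normalized counts in MC4R-/- replicates 1 to 6, against 10611, 10984, 8527 and 9385 in WT replicates 1 to 4. All 6 MC4R-/- libraries lay below the WT mean, but WT replicates 3 and 4 lay among them and the groups overlapped. The means were 8736 ± 619 in MC4R-/- and 9877 ± 1130 in WT (SD, n = 6 and n = 4), a log2 fold change of -0.17 (95% confidence interval -0.31 to -0.03; limma, unadjusted p = 0.0189, adjusted p = 0.377). An antisense gene, A930016O22Rik, overlaps 3952 bases of the Ckm gene span, introns included, and the overlap of exons was not measured. Since no source used here states whether counting used strand, reads of both from shared exon bases could not be told apart.

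Its mitochondrial partner Ckmt2 (chromosome 13, 91853386 to 91876923) had 15046, 17025, 15959, 16229, 14853 and 15261 normalized counts in MC4R-/- replicates 1 to 6, against 16477, 16501, 16048 and 15953 in WT replicates 1 to 4. MC4R-/- libraries lay on both sides of the WT range, which was narrow. The log2 fold change was -0.05 (95% confidence interval -0.16 to 0.06; limma, adjusted p = 0.833), an interval from 0.897 to 1.04 times the WT level. An antisense gene, 1700119I11Rik, overlaps 613 bases of the Ckmt2 gene span, with the same limits as for Ckm. Slc25a4, the heart ADP/ATP carrier that works beside Ckmt2, had 31954 ± 986 in MC4R-/- and 34713 ± 1297 in WT (SD), with all 6 MC4R-/- libraries below every WT library, and did not pass (limma, adjusted p = 0.397). The log2 fold change of Slc25a4 was -0.12 in the reported fit and -0.015 with quantile normalization (limma, adjusted p = 0.952).

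Ckb, the brain-type cytosolic isoform that fetal hearts also use, was spread widely in MC4R-/-. Ckb (chromosome 12, 111669355 to 111672338) had 242, 233, 331, 200.4, 226 and 272 normalized counts in MC4R-/- replicates 1 to 6, against 255, 251, 187 and 216 in WT replicates 1 to 4. Only MC4R-/- replicates 3 and 6 lay above the WT range. The log2 fold change was 0.13 (95% confidence interval -0.11 to 0.38; limma, adjusted p = 0.775), and it fell to 0.05 without MC4R-/- replicate 3 and to 0.04 without WT replicate 3. MC4R-/- replicate 3 was also the highest in Acta1, the skeletal alpha-actin, with 9441 against 2371 to 4336 in the other MC4R-/- libraries and 1175 to 3340 in WT. The fast skeletal myosins Myh2 and Myh4 were at 0 in all libraries, and smooth muscle markers, a cell type that uses Ckb, summed to 6552 to 7231 in MC4R-/- and 6304 to 8187 in WT. Their part in the Ckb values was not tested.

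As a share of the 3 creatine kinase transcripts per length, Ckb held 0.999, 0.906, 1.27, 0.814, 0.910 and 1.13% in MC4R-/- replicates 1 to 6, against 0.923, 0.896, 0.749 and 0.837% in WT replicates 1 to 4. In MC4R-/- 3 of 6 libraries lay above the WT range and the others within it, with means of 1.005 ± 0.169% in MC4R-/- and 0.851 ± 0.0771% in WT (SD). Ckmt2 exceeded Ckm per length in every library, by 1.72 ± 0.182 times in MC4R-/- and 1.58 ± 0.162 times in WT (SD). The shares combine genes of the set and are given without a test.

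**Figure D3:**
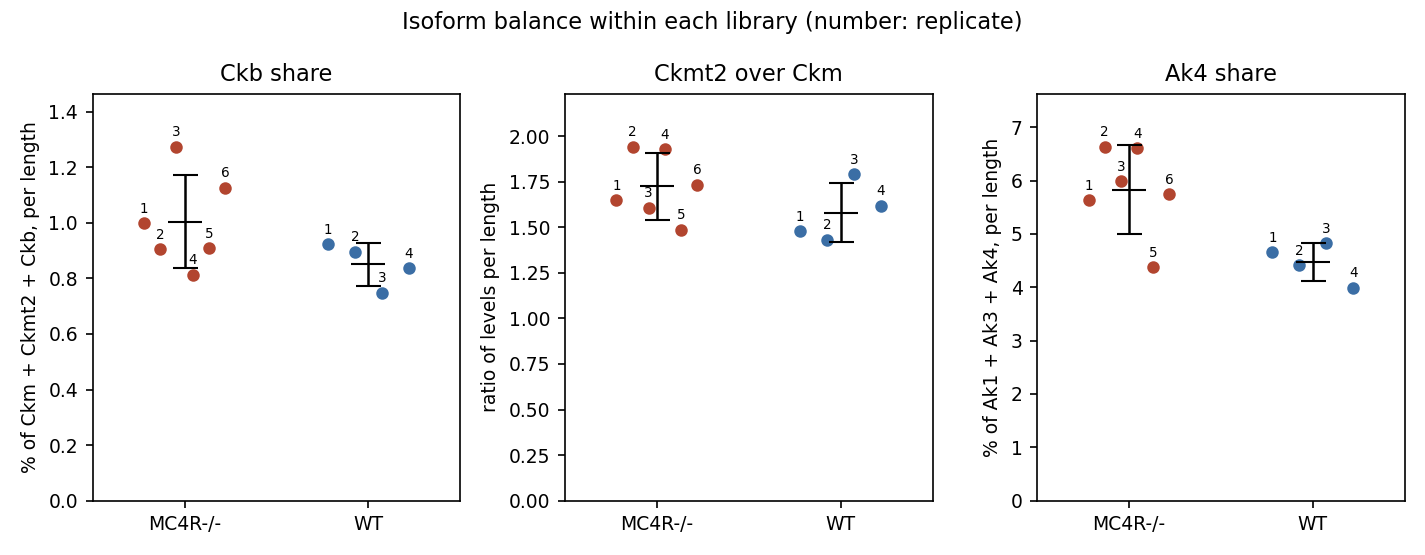
Ckb as a percent of Ckm, Ckmt2 and Ckb together (left), the ratio of Ckmt2 to Ckm (centre) and Ak4 as a percent of Ak1, Ak3 and Ak4 together (right), all from levels per length and with axes from 0, MC4R-/- left of WT. Points are libraries with replicate numbers and bars the mean ± SD; for Ak4, 5 of 6 MC4R-/- libraries lie above all 4 WT libraries.

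The promoters of the cytosolic isoforms are shown because Ckm and Ckb encode the same reaction at levels that differed 36.3-fold per length in MC4R-/- and 45.2-fold in WT. Both come from the RefSeq table of GRCm38.p6 and run from 250 bases before to 50 bases after the transcript start, chr7:19410844-19411143 on the plus strand and chr12:111672289-111672588 on the minus strand. Capitals mark matches on either strand to the motifs searched. These were the receptor half-site AAGGTCA, the TATA box TATAAA, the E-box form CAGCTG, the hypoxia response core form ACGTG and the GC box GGGCGG.
Ckm: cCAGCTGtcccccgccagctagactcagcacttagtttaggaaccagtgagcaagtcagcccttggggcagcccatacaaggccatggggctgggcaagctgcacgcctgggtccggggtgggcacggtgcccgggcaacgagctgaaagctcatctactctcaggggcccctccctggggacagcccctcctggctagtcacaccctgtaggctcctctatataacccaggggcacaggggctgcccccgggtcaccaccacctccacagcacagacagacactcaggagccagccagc
Ckb: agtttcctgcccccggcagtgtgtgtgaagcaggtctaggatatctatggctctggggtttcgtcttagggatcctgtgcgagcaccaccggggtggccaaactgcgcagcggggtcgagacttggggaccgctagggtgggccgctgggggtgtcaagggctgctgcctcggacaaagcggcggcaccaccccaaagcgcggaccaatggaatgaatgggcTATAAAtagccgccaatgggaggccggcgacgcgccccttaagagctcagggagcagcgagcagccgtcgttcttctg
The Ckm window held CAGCTG, present in 16.3% of all 32851 promoter windows. The Ckb window held TATAAA starting 28 bases before the transcript start, present in 13.6% of windows. Neither was particular to its gene, as CAGCTG was also found for Ckmt2, Ak1 and Ak3, and TATAAA for Ak1. Only exact matches were searched, so a near match, such as the tatataa of the Ckm window, is not marked. Of the 9 genes 8 had a promoter window. The motif AAGGTCA, which estrogen-related receptors bind, was found in windows of 1 of these 8 genes, Ak1, and in 4.72% of all windows. Since Ak1 has 4 windows, the count of genes cannot be compared with the share of windows. A match is a run of letters and does not show binding.

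Creatine reaches the cell through Slc6a8 and can be made by Gatm and then Gamt. Gatm, which transfers the amidino group of arginine to glycine, and Gamt, which methylates the product to creatine, were both near the lower end of what these libraries could measure. Gatm (chromosome 2, 122594473 to 122611277) had 23.5, 18.6, 23.5, 20.3, 27.3 and 17.2 normalized counts in MC4R-/- replicates 1 to 6, against 12.5, 9.93, 24.9 and 15.0 in WT replicates 1 to 4. WT replicate 3, the shallowest library, lay above 5 of the 6 MC4R-/- libraries, and the other WT libraries lay below all of them. Gatm had a log2 fold change of 0.52 (95% confidence interval -0.00361 to 1.04; limma, unadjusted p = 0.0515, adjusted p = 0.527), and 0.76 without WT replicate 3 or 0.34 without WT replicate 2. These values rest on 17 to 27 reads per library in MC4R-/- and 11 to 18 in WT, so that counting alone would give an SD of 4.63 in MC4R-/- and 4.14 in WT, beside the observed 3.75 and 6.56.

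Gamt (chromosome 10, 80258151 to 80261025) had 22.5, 30.0, 26.1, 24.4, 28.4 and 17.2 normalized counts in MC4R-/- replicates 1 to 6, against 15.4, 18.1, 27.7 and 23.8 in WT replicates 1 to 4. The groups overlapped, with a log2 fold change of 0.23 (95% confidence interval -0.24 to 0.69; limma, adjusted p = 0.806), an interval from 0.848 to 1.61 times the WT level. It was 0.091 without WT replicate 1 and 0.36 without WT replicate 3.

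Slc6a8 (X chromosome, 73673133 to 73682502), the sodium-coupled creatine transporter, was by far the most abundant of the creatine supply genes, at 48.4 times the level of Gatm per length in MC4R-/- and 69.4 times in WT. It had 1339, 1599, 1596, 1408, 1403 and 1526 normalized counts in MC4R-/- replicates 1 to 6, against 1542, 1424, 1444 and 1673 in WT replicates 1 to 4. In MC4R-/- 3 of 6 libraries lay below the WT range and the others within it. The fitted log2 fold change was -0.04 (95% confidence interval -0.19 to 0.10; limma, adjusted p = 0.901), an interval that holds changes of up to 0.879 and 1.07 times the WT level. Without WT replicate 4, the highest, the sign turned (log2 fold change 0.0055).

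Ak4 had the largest difference of the adenylate kinases, and 1 library, MC4R-/- replicate 5, lay apart from the rest of its genotype. Ak4 (chromosome 4, 101416478 to 101467771), which is known as a hypoxia-inducible gene in other cells, had 535, 617, 586, 622, 385 and 534 normalized counts in MC4R-/- replicates 1 to 6, against 439.7, 393, 382 and 349 in WT replicates 1 to 4. MC4R-/- replicates 1, 2, 3, 4 and 6 lay above every WT library, and replicate 5 lay inside the WT range. The means were 547 ± 87.9 in MC4R-/- (SD, n = 6) and 391 ± 37.6 in WT (SD, n = 4), a fold of 1.39 (95% confidence interval 1.18 to 1.63) with 276 to 673 reads per library behind each value. The log2 fold change was 0.47 ± 0.11 (SE; limma, unadjusted p = 0.000466, adjusted p = 0.0733).

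The call on Ak4 changed with the model and with 1 library. It passed by DESeq2 (adjusted p = 0.00709, where 0.808% of all genes were called), with library quality weights (limma, adjusted p = 0.034; 0.808% of all genes) and without MC4R-/- replicate 5 (log2 fold change 0.57, limma, adjusted p = 0.000711; 0.623% of all genes), and it did not by edgeR (adjusted p = 0.0615). The adjusted p was highest, of all settings run, at 0.371 without limma's trend and robust variance, and reached 0.262 without WT replicate 3. It also passed without WT replicate 2 and MC4R-/- replicate 5 together (limma, adjusted p = 0.000308; 1.14% of all genes). MC4R-/- replicate 5 was the library with the most atrial transcripts, with 720 normalized counts of the atrial myosin light chain Myl7 against 0.978 to 134 in the other MC4R-/- libraries and 0 to 48.1 in WT, and its part in the Ak4 value was not tested. In bulk tissue, more cells that carry a transcript and more transcript per cell cannot be told apart.

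**Figure D4:**
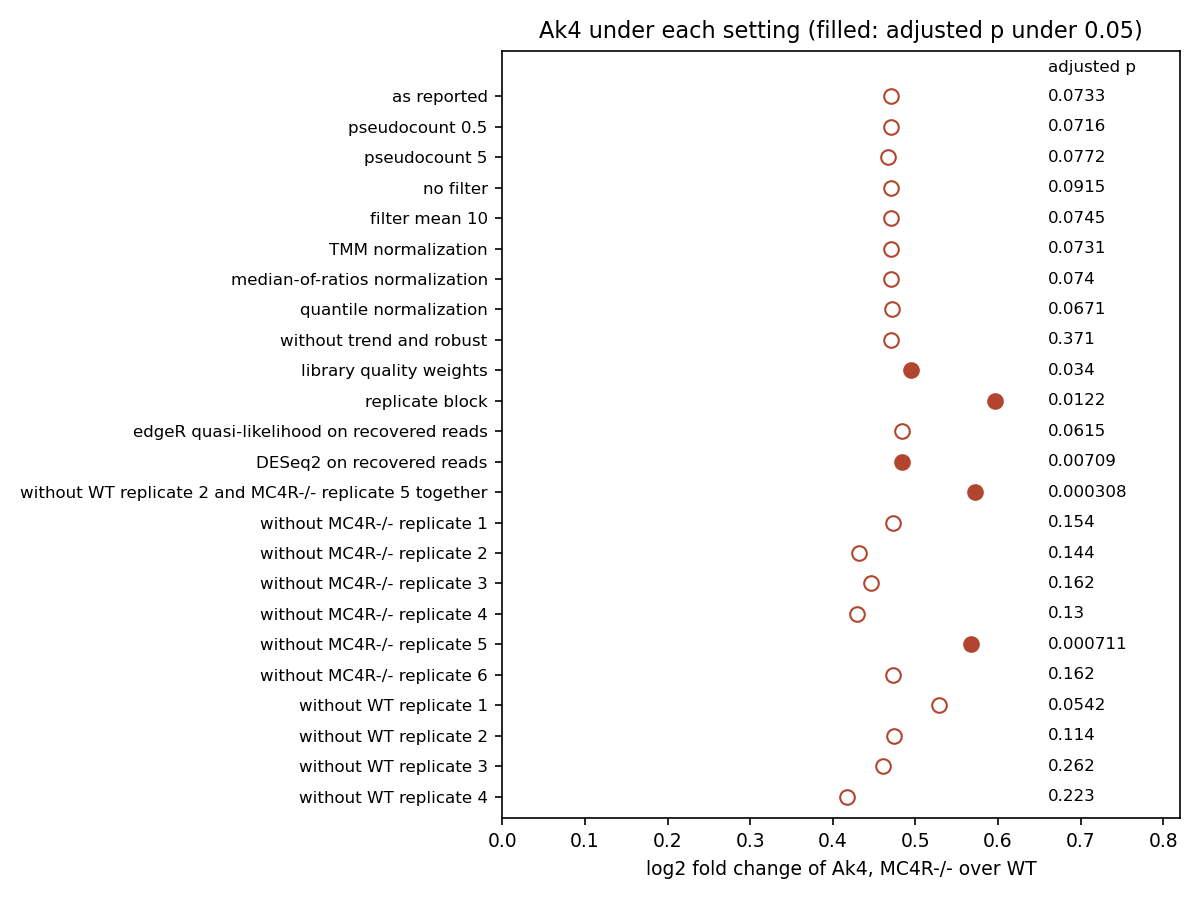
Log2 fold change of Ak4, MC4R-/- over WT, under the reported fit and each alternative setting, with the adjusted p at the right; filled points have an adjusted p under 0.05. All points lie between 0.42 and 0.60, and the adjusted p runs from 0.000308 to 0.371.

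Ak1 (chromosome 2, 32621758 to 32635058), the cytosolic isoform, had 3710.3, 3564, 3868, 3598, 3496 and 3696 normalized counts in MC4R-/- replicates 1 to 6, against 3735, 3517, 3000.04 and 3454 in WT replicates 1 to 4. All 6 MC4R-/- libraries lay above the WT mean, and 1 of them above all WT libraries. Between the genotypes the log2 fold change was 0.10 (95% confidence interval -0.03 to 0.23; limma, adjusted p = 0.683) and 0.03 without WT replicate 3. Ak3 (chromosome 19, 28995053 to 29048080), which uses GTP to phosphorylate AMP in the matrix, had 994, 995, 936, 1028, 909 and 879 normalized counts in MC4R-/- replicates 1 to 6, against 979, 939.7, 998 and 945 in WT replicates 1 to 4. Its log2 fold change was -0.01 (95% confidence interval -0.15 to 0.12; limma, adjusted p = 0.970), and its sign turned in 3 alternative settings. The Ak3 row is also uncertain, because the protein-coding gene Cdc37l1 overlaps its gene span, introns included, on the opposite strand over 31629 bases. A processed pseudogene, Gm10136, also lies within that span, and the overlap of exons was not measured.

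Of the 3 adenylate kinase transcripts per length, Ak4 held 5.63, 6.64, 5.99, 6.61, 4.38 and 5.74% in MC4R-/- replicates 1 to 6, against 4.66, 4.42, 4.82 and 3.99% in WT replicates 1 to 4. The same 5 MC4R-/- libraries lay above the WT range. Ak1 held 78.9 ± 1.38% in MC4R-/- and 79.0 ± 1.73% in WT (SD), and Ak3 held 15.3 ± 0.901% in MC4R-/- and 16.5 ± 1.52% in WT (SD).

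**Figure D5:**
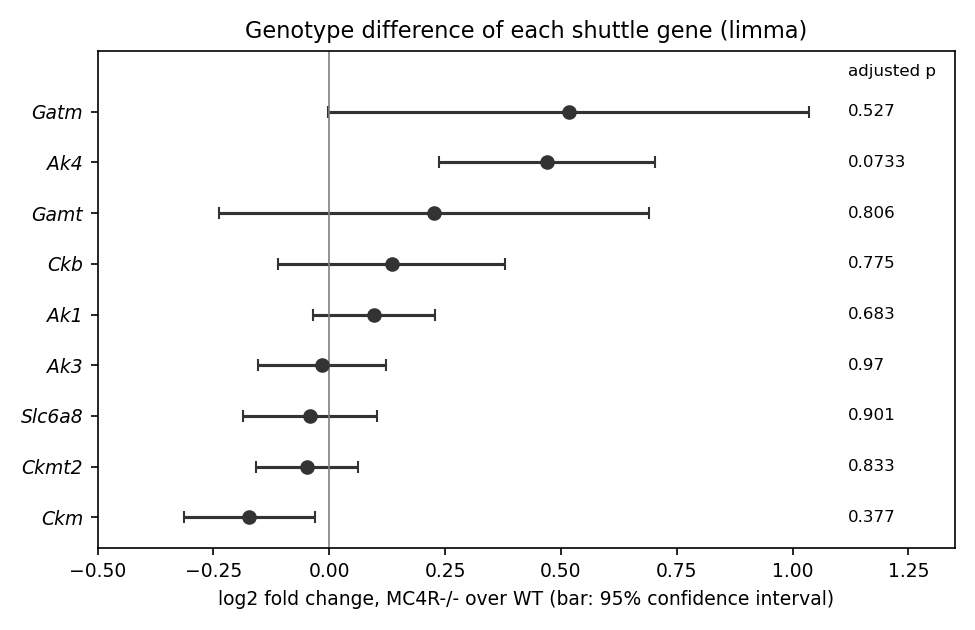
Log2 fold change of the 9 genes, MC4R-/- over WT (horizontal axis; bars are 95% confidence intervals from limma), ordered by size, with the adjusted p over all genes tested at the right. The intervals of Ak4 and Ckm do not include 0, and no adjusted p is under 0.05.

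Windows of the Ak4 promoter are shown because it had the smallest p of the 9 genes. RefSeq gives 4 windows for it, 3 of which overlap, and the first and the last are chr4:101419039-101419338 and chr4:101419453-101419752 on the plus strand, GRCm38.p6. Capitals mark ACGTG, a form of the core of the hypoxia response element, and the GC box GGGCGG on either strand. The form GCGTG was not searched and stands unmarked in both windows.
Ak4 first window: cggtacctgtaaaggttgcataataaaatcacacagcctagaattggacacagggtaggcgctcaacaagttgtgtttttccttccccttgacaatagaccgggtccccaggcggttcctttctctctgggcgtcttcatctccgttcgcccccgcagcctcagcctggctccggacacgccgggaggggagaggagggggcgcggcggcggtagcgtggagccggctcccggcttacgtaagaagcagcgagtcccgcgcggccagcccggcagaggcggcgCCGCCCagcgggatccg
Ak4 last window: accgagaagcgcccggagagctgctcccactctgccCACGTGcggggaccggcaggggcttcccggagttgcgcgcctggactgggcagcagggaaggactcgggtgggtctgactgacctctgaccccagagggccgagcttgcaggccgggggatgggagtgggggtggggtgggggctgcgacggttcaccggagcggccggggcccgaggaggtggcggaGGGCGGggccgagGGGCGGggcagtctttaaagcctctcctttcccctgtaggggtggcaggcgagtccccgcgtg
The last window holds CACGTG, in which ACGTG reads on both strands and which is also a form of the E-box. ACGTG occurs in 19.6% of all windows and in windows of 3 of the 8 genes, Gatm, Ak1 and Ak4. Ak1 and Ak4 have 4 windows each, so the count of genes cannot be compared with the share of windows. GGGCGG occurs in 35.7% of all windows. The hypoxia-inducible factor genes themselves did not pass the test, Hif1a with 536 ± 17.7 in MC4R-/- and 526 ± 75.8 in WT (SD; limma, adjusted p = 0.928) and Epas1 with 2775 ± 159 in MC4R-/- and 2875 ± 251 in WT (SD; limma, adjusted p = 0.871). These are transcript levels, protein and activity of the factors were not measured, and their part in the Ak4 values was not tested.

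Other genes of phosphate transfer and its surroundings were read from 8 lists of 74 genes, of which 66 were tested. Of these 66, 0 were higher and 2 lower in MC4R-/- at an adjusted p of 0.05 (limma), against 0.287% of all genes higher and 0.171% lower. The called genes were Slc7a1 and Ppargc1a. Slc7a1 is a cationic amino acid carrier that takes up arginine, a substrate of Gatm, and the use of this arginine by Gatm was not measured. Slc7a1 had 209, 213, 239.6, 199, 276 and 161 normalized counts in MC4R-/- replicates 1 to 6, against 331, 402, 392 and 399.7 in WT replicates 1 to 4. All MC4R-/- libraries lay below all WT libraries (log2 fold change -0.83 ± 0.11, SE; limma, adjusted p = 0.000622). Slc7a1 was 1 of 9 tested genes of the list for substrates and methyl donors of creatine synthesis. The median log2 fold change of that list was -0.03, beside -0.01 over all genes.

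Ppargc1a, the PGC-1alpha coactivator of mitochondrial and muscle energy genes, had 731, 784, 653, 757, 859.98 and 743 normalized counts in MC4R-/- replicates 1 to 6, against 1072, 1094, 1112 and 1097 in WT replicates 1 to 4. The genotypes did not overlap (log2 fold change -0.54 ± 0.07, SE; limma, adjusted p = 0.000316). Both genes were among those known to differ before these lists were drawn up, so their calls add no independent evidence. The other 13 tested regulators of that list, among them the estrogen-related receptors Esrra, Esrrb and Esrrg, did not pass, and the list's median log2 fold change was -0.06.

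Ckmt1, the mitochondrial creatine kinase of other tissues, was close to absent, at 1.77 ± 1.48 in MC4R-/- and 2.17 ± 1.38 in WT (SD; limma, adjusted p = 0.894). Of the 14 tested nucleotide kinases and AMP-removing enzymes 0 passed by limma, and Nt5e, the ecto-enzyme that turns AMP into adenosine, came nearest at 123 ± 15.1 in MC4R-/- and 155 ± 29.0 in WT (SD; adjusted p = 0.329).

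Among the 11 genes of AMP-activated protein kinase and its kinases 0 passed by limma. Prkab2, the muscle beta subunit, had 587 ± 39.8 normalized counts in MC4R-/- and 509 ± 31.4 in WT (SD), with all 6 MC4R-/- libraries above all WT libraries (limma, adjusted p = 0.310). Prkab1, the other beta subunit, had 188 ± 21.9 in MC4R-/- and 216 ± 17.7 in WT (SD; limma, adjusted p = 0.509). In the list of ATP-using pumps and motors 0 of 6 passed by limma, with 3 at an unadjusted p under 0.05. Over all 66 tested genes, 4 had genotypes that did not overlap (6.06%), namely Slc7a1, Ppargc1a, Slc25a4 and Prkab2, beside 2.28% of all genes tested.

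Within the genotypes, 6 pairs of the 9 genes were compared over the 10 libraries after the genotype means had been removed, and none passed after adjustment over the 6 pairs. Gatm and Gamt had a Pearson r of 0.69 (two-sided permutation p = 0.0263, adjusted 0.0559) and a Spearman rho of 0.72 (permutation p = 0.023, adjusted 0.0978), and r was 0.57 without WT replicates 2 and 3. Ckb and Ckm had an r of 0.70 (permutation p = 0.0257, adjusted 0.0559) and a rho of 0.65 (permutation p = 0.0489, adjusted 0.0978), with r = 0.62 without MC4R-/- replicates 3 and 4. Ckm and Ak1 had an r of 0.67 (permutation p = 0.0279, adjusted 0.0559) and a rho of 0.55 (permutation p = 0.103, adjusted 0.155), and r was 0.41 without WT replicates 2 and 3. Ak3 and Ak4 had an r of 0.56 (permutation p = 0.0887, adjusted 0.133) and a rho of 0.66 (permutation p = 0.0438, adjusted 0.0978), with r = 0.63 without MC4R-/- replicates 4 and 6. Ckm and its mitochondrial partner Ckmt2 gave an r of -0.10 (permutation p = 0.778, adjusted 0.778) and a rho of -0.16 (permutation p = 0.659, adjusted 0.758), with r = -0.31 without WT replicates 2 and 3. Gatm and Slc6a8 gave an r of -0.21 (permutation p = 0.576, adjusted 0.691) and a rho of -0.12 (permutation p = 0.758, adjusted 0.758), with r = -0.37 without the same libraries. Both values of a pair share a library and its size factor.

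The genes whose deviations from the genotype means were most like those of a member, among 9160 genes with a mean of at least 50, were chosen for their likeness and carry no p. For Ak4 they were Timm22 (Pearson r = 0.98 over 10 libraries) and Lyrm9 (r = 0.97). For Ckm they were Ldb3 (r = 0.98) and Szrd1 (r = 0.96), for Ckmt2 Supv3l1 (r = 0.90) and Bzw2 (r = 0.88), and for Ckb Tom1l2 (r = 0.99). For Slc6a8 they were Znfx1 (r = 0.94) and Enpp1 (r = 0.91), for Gamt Fgd6 (r = 0.93) and Gnpnat1 (r = 0.92), and for Gatm Kdm1b (r = 0.95) and Map4k5 (r = 0.93). For Ak1 they were Gpr137 (r = 0.97) and Adamts15 (r = 0.96), and for Ak3 Mterf3 (r = 0.99) and Ube2a (r = 0.97). With 10 libraries and 9160 genes searched, high values of r arise by the search alone, and none of the genes named here for likeness passed the test of genotype.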

How the data were processed

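Sequencing was of poly(A) RNA (200 ng, integrity number above 7, stranded kit, per the labels' protocols). Build mm10 and, without roles, TopHat2 2.1.0, Cufflinks 2.2.1, Cuffdiff 2.2.1.3, Cuffnorm 2.2.1.1, Bowtie2 and bcl2fastq are named in the submitters' processing notes. The deposited signal of each gene is a read count over a library size factor: divided by the step of its library, 99.9862 to 100% of values came within 0.1 of a whole number. Rows were matched to symbols by RefSeq accession (24107 of 24160). Lengths are GENCODE M21 exons clipped to RefSeq gene bounds, since the GENCODE Ckm transcript runs past the RefSeq one.

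Genotype was tested with limma 3.58.1 in R 4.3.3 on log2(normalized count + 1) with trended, robust variance, over genes with a mean of at least 1, two-sided, with Benjamini-Hochberg adjustment; fold changes on this scale understate those of low genes. Count models on recovered reads used edgeR 4.0.16 and DESeq2 1.42.0. The fit was tested on simulated data. Correlations used 100000 permutations. Each of the 9 genes, each called gene of a list and otherwise the 1 or 2 list genes with the smallest p are named, except some that are not reported here; Esrra, Esrrb, Esrrg, Hif1a, Epas1 and the motifs ACGTG and GGGCGG were added after values were seen. The genes and lists were chosen with earlier results of these data known.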

Additional observations from a re-analysis of the deposited data

Results flagged for a closer look

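Of 32 groups of values screened for a sample far from the others, 2 were picked out, where chance picks about 1 in 20. Ak4 in MC4R-/- replicate 5, at 385 normalized counts, lay far below the other 5 MC4R-/- libraries (534 to 622), with a gap of 0.629 of the whole range. The share of Ak1 among adenylate kinase transcripts in WT replicate 3, at 76.4%, lay below the 79.8 to 79.9% of the other WT libraries, with a gap of 0.988 of the range. WT replicate 3 was the shallowest library, with 4145033 reads.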

How the results depend on the processing

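Of 23 alternatives, 5 called 1 of the 9 genes, always Ak4, and 18 called 0. The 1 call came with library quality weights, the replicate block, DESeq2 and the joint removal of WT replicate 2 and MC4R-/- replicate 5, and leaving out 1 library gave 0 to 1. Among all genes, 67 passed in the reported fit, against 0 by limma with neither trend nor robust variance (1290 had an unadjusted p under 0.05, and edgeR called 50), 118 with library weights, 118 by DESeq2, 167 after the joint removal and 26 to 118 with 1 library left out. Counts of 37, 29 and 44 came without MC4R-/- replicates 1, 2 and 3, and of 118, 31 and 26 without WT replicates 2, 3 and 4. Of the listed genes 2 passed, against 0 without trend and robust, 4 after the joint removal and 2 to 3 with 1 library left out. The log2 fold change of Ak3 turned to 0.033 with the replicate block, 0.0091 without MC4R-/- replicate 6 and 0.0012 without WT replicate 3, within -0.036 to 0.0091 over the libraries left out. That of Slc6a8 turned to 0.0055 without WT replicate 4, within -0.072 to 0.0055. Without division by length, the shares of Ak1, Ak3 and Ak4 were 70.9, 18.6 and 10.6% in MC4R-/- and 71.6, 20.3 and 8.17% in WT. Replicate numbers are shared by both genotypes, and deviations of same-numbered libraries correlated at -0.15 to -0.03. These values show no shared deviation, but so few correlations cannot exclude a pairing. The replicate block put Ak4 at 0.60 on the log2 scale (limma, adjusted p = 0.0122), with 52 genes past the threshold. The causes were not tested. Depth limits Gatm and Gamt, with at most 30 reads per library.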
